A study of Mus musculus with 6 samples.

Results

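Thrombospondins and the SPARC and SMOC proteins are matricellular proteins, secreted into the extracellular matrix where they act on cells and on growth factors more than as structural parts. The 9 genes described here were chosen by symbol: the 5 thrombospondin genes Thbs1, Thbs2, Thbs3, Thbs4 and Comp, the SMOC genes Smoc1 and Smoc2, and Sparc with its close relative Sparcl1. All 9 were found among the 35415 genes of the count table, and all 9 were among the 16841 genes expressed highly enough to be tested. They were read in whole ovaries of mice aged 3 months at estrus, by bulk RNA sequencing of 3 Rnf111+/- and 3 wild-type libraries, 1 mouse each by their titles. The product of Rnf111, Arkadia, is a ubiquitin ligase known to promote TGF-beta family signalling by removing its inhibitors. The Rnf111+/- mice carry a CRISPR-Cas9 edit of 1 of their Rnf111 copies, made to model RNF111 variants linked to premature ovarian insufficiency. The sources used here do not say which of the study's edited lines was sequenced, nor the strain.

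Thrombospondins fall into subgroup A (Thbs1 and Thbs2), which forms trimers and carries the type 1 repeats that bind the receptor CD36 and restrain blood vessel growth, and subgroup B (Thbs3, Thbs4 and Comp), which forms pentamers without those repeats. Thrombospondin-1 can activate latent TGF-beta and is made by granulosa cells of the ovary. SMOC proteins are modular calcium-binding proteins of basement membranes that modulate bone morphogenetic protein (BMP) signalling, and SPARC binds collagen and takes part in its assembly into fibres. SPARC-like 1, also called hevin, shares the collagen-binding part of SPARC and is prominent around blood vessels.

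Library totals ranged from 38261449 to 39474515 counts, so that 3 counts, the floor of detection used here, stood for 0.0747 to 0.0784 CPM (read counts scaled to a common library size, with the trimmed mean of M values). Rnf111 itself was at 44.6 ± 0.394 CPM in Rnf111+/- ovaries and at 53.9 ± 0.477 CPM in wild-type ovaries (SD, n = 3 each), a log2 fold change of -0.27 ± 0.07 (SE, adjusted p = 0.04), and this call survived the loss of wild-type replicate 3 but not of any other library (adjusted p up to 0.146), and it was lost with upper-quartile scaling and with no filter on low counts. Wild-type replicate 3 stood apart: across genes, r of log2 CPM was 0.9735 and 0.9745 against wild-type replicates 1 and 2, and 0.9887 between those 2. It also held 255 CPM of oviduct epithelium markers, against 87.9 and 91.6 CPM in the other wild-type libraries and 72.1 to 76.9 CPM in Rnf111+/- libraries. Of 6 such markers, 1 was called lower in Rnf111+/- ovaries and 0 higher. Adipocyte markers summed to 75.5 CPM in wild-type replicate 3, 19.5 and 33.7 CPM in the other wild-type libraries, and 29.1 to 54.4 CPM in Rnf111+/- libraries. Ovarian cell types were present by their markers, with all 10 granulosa and all 10 oocyte markers expressed highly enough to be tested. In whole ovaries, fewer cells of a type and less RNA per cell cannot be told apart.

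Between the genotypes, 3 of the 9 genes rose in Rnf111+/- ovaries (Comp, Smoc2 and Thbs1), 3 fell (Sparc, Thbs3 and Sparcl1) and 3 did not pass the test (Thbs4, Smoc1 and Thbs2). Of all tested genes, 3.90% rose and 5.74% fell at an adjusted p under 0.05 by edgeR's quasi-likelihood test, 9.64% in either direction. The Rnf111+/- and wild-type values did not overlap for 7 of the 9, with Rnf111+/- above in 4 and below in 3. Of all tested genes, 15.1% lay fully above, 16.9% fully below, and 32.0% did not overlap in either direction. Because the genes were chosen with results of these data known, these shares describe the 9 genes and carry no test of their own. The split ran through the families: Comp and Thbs3 of subgroup B moved in opposite directions, and within the SMOC pair Smoc2 rose while Smoc1 did not pass.

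**Figure D1:**
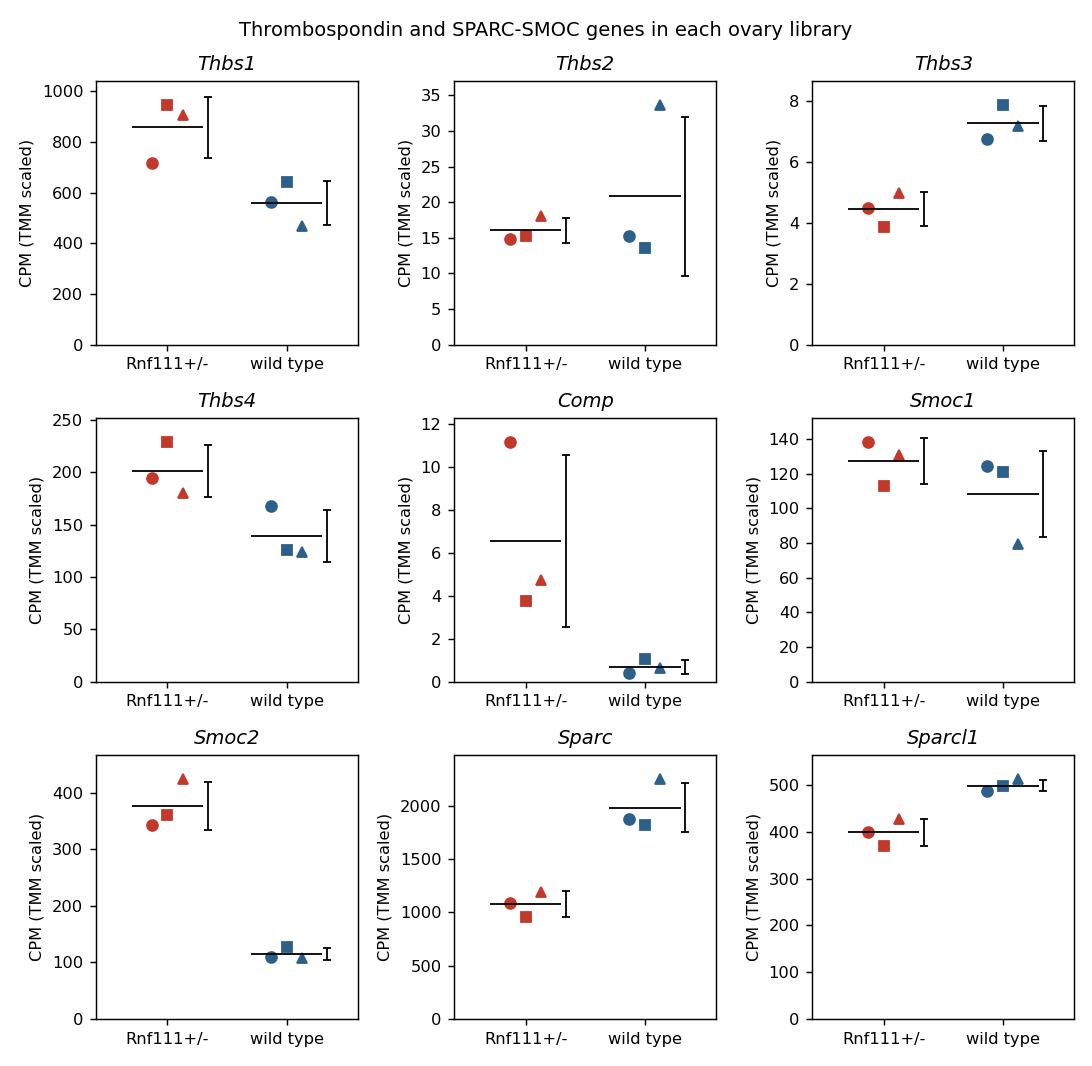
CPM of the 9 genes in each library, with Rnf111+/- in red on the left and wild type in blue on the right of each panel (circle, square and triangle are replicates 1, 2 and 3). Horizontal lines are means and bars are SD of 3 libraries. Smoc2 lies at 343 to 424 CPM in Rnf111+/- and 107 to 127 CPM in wild type, Sparc shows the opposite order, and Thbs2 has 1 high wild-type library.

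Of subgroup A, Thbs1 encodes thrombospondin-1, an inhibitor of angiogenesis that binds CD36 and CD47. It was at 718, 946 and 908 CPM in Rnf111+/- libraries, against 564, 641 and 468 CPM in wild-type libraries. Every Rnf111+/- library lay above every wild-type library, and Thbs1 rose by 0.62 ± 0.14 on the log2 scale (SE, adjusted p = 0.032), with means of 857 ± 122 and 558 ± 86.7 CPM (SD, n = 3 each). The call held in 3 of the 6 leave-one-out fits. It was lost without Rnf111+/- replicates 2 and 3 (adjusted p = 0.111 each) and without wild-type replicate 1 (0.0839), with log2 values between 0.52 and 0.74 over the 6 fits.

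Thbs2 encodes thrombospondin-2, a trimeric relative of thrombospondin-1 made largely by fibroblasts. It was at 14.9, 15.2 and 18.0 CPM in Rnf111+/- libraries, against 15.2, 13.6 and 33.6 CPM in wild-type libraries. The groups overlapped, and only wild-type replicate 3 lay apart, at 2.34 times the mean of the other wild-type libraries. The difference did not pass (log2 -0.38 ± 0.35, adjusted p = 0.56) and its sign depended on that library, since without it the value was 0.17 (adjusted p = 0.467). Thbs2 and Smoc2 are neighbours on chromosome 17, with 0 protein-coding genes between them in the GENCODE annotation, and Smoc2 was separated between genotypes where Thbs2 was not.

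Of subgroup B, Comp encodes cartilage oligomeric matrix protein (thrombospondin-5), best known from cartilage and tendon, where it binds collagens. It had 448, 148 and 181 counts in Rnf111+/- libraries, against 16, 41 and 25 counts in wild-type libraries. The gene was thus rare in both genotypes, at 6.56 ± 4.01 CPM in Rnf111+/- and 0.706 ± 0.328 CPM in wild type (SD, n = 3 each), and Rnf111+/- replicate 1 was 2.95 times the lowest Rnf111+/- library. Comp rose by 3.21 ± 0.52 on the log2 scale (SE, adjusted p = 0.0114), a 9.28-fold ratio of means, and 27 of the 16841 tested genes had a larger log2 fold change. The call held in all 6 fits that left out 1 library, at 2.59 without Rnf111+/- replicate 1 (the lowest value) and at up to 3.63, with adjusted p from 0.0176 to 0.0387. Of 10 cartilage and tendon markers, 5 were expressed highly enough to be tested and 0 were called by edgeR (0 at an unadjusted p under 0.05), by DESeq2, by limma-voom or by any fit that left out 1 library. Those 5 summed to 23.9 to 30.0 CPM in Rnf111+/- and 29.0 to 35.0 CPM in wild type. Scx, a transcription factor gene of tendon, had 735, 707 and 924 counts in Rnf111+/- libraries, against 793, 909 and 909 counts in wild-type libraries. Of the 5 untested markers, Matn3 had 11, 18 and 8 counts in Rnf111+/- libraries and 4, 10 and 0 in wild-type libraries, and Col9a1 had 1, 8 and 3 in Rnf111+/- libraries and 0 in each wild-type library. Col2a1 had 1 to 4 counts in every library, and Tnmd and Matn1 each had 0 counts in 5 of the 6 libraries. The part of these cells in the rise of Comp was not tested.

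Thbs3 encodes a pentameric thrombospondin with roles in the growing skeleton. It had 180, 152 and 191 counts in Rnf111+/- libraries, against 259, 304 and 281 counts in wild-type libraries. Thbs3 fell to 4.45 ± 0.554 CPM in Rnf111+/- ovaries, against 7.27 ± 0.566 CPM in wild type (SD, n = 3 each), 61.2% of the wild-type level (log2 -0.71 ± 0.18, adjusted p = 0.0401). Without wild-type replicate 3 the call held (adjusted p = 0.0314). It was lost without Rnf111+/- replicates 1, 2 and 3 (0.104, 0.159 and 0.0887) and without wild-type replicates 1 and 2 (0.0821 and 0.13). In the GENCODE annotation 318 exon bases of Thbs3 are shared with Mtx1 on the opposite strand, and the strand setting of the counting is not given in the sources used here. Mtx1, looked up for that overlap, was at 33.6 ± 2.23 CPM in Rnf111+/- and 36.4 ± 3.84 CPM in wild type (adjusted p = 0.525).

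Thbs4, which encodes a pentameric thrombospondin of muscle, tendon and vessel walls, was the abundant member of subgroup B. Its CPM was 194, 229 and 180 in Rnf111+/- libraries, against 168, 126 and 124 in wild-type libraries. All Rnf111+/- values lay above all wild-type values, but the difference narrowly missed the threshold (log2 0.53 ± 0.14 SE, adjusted p = 0.0504). It passed with 5 of the 6 other settings tried on all libraries (DESeq2 gave adjusted p = 0.00335, and the size-factor scaling of DESeq2 within edgeR gave 0.0466) and without wild-type replicate 1 (log2 0.70, adjusted p = 0.0184). It missed the threshold with no filter on low counts (0.0523) and without each other library (adjusted p = 0.0862 to 0.159).

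Promoter sequences were at hand for 4 of the 9 genes (Thbs2, Thbs3, Thbs4 and Sparc), from RefSeq's GRCm38.p6 annotation, which is an earlier build than the GRCm39 named by the submitters. Those of Thbs3 and Sparc, which both fell, and of Thbs4, the subgroup B gene with the opposite sign to Thbs3, are printed as 300 bases spanning the annotated start, most of them upstream. Capitals mark CAGACA, a sequence bound by SMAD proteins, read on either strand (here always as its reverse complement TGTCTG). Thbs3 is at chr3:89214930-89215229 on the plus strand, Thbs4 at chr13:92794769-92795068 and Sparc at chr11:55420031-55420330, both on the minus strand.
Thbs3: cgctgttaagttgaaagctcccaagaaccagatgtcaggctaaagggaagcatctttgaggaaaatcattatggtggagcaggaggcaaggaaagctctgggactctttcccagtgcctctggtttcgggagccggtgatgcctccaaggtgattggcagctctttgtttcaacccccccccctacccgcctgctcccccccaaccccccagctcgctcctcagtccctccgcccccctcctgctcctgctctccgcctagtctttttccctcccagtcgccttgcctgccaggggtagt
Thbs4: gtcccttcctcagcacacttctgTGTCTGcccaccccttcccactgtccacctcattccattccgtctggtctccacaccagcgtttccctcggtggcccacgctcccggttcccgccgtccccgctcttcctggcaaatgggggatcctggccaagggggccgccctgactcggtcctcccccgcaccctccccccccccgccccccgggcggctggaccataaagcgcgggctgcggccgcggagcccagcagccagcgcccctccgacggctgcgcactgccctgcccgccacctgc
Sparc: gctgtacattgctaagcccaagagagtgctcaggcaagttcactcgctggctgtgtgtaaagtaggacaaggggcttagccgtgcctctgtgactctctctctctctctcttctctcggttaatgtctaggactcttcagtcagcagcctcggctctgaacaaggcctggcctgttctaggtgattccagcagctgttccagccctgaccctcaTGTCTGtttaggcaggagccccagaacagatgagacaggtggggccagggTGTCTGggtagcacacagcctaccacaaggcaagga
CAGACA occurred 2 times in the Sparc window, 1 time in that of Thbs4, 2 times in that of Thbs2 and 0 times in that of Thbs3, and at least once in 21.0% of all 32851 RefSeq promoter windows of that length. The SMAD palindrome GTCTAGAC (in 0.213% of windows), GGCGCC (11.9%), the AP-1 motif TGANTCA (7.81%) and the full estrogen response element (0.07%) were in none of the 4, and TATAAA (13.6%) was once in that of Thbs2. G and C made up 59.0% of the Thbs3 window, 72.0% of the Thbs4 window and 55.3% of the Sparc window, with a median of 52.7% over all windows. Such matches describe letters and do not show binding.

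Smoc2, which encodes a secreted modulator of BMP and growth factor signalling, had the smallest p of the 9 genes. Its CPM was 343, 361 and 424 in Rnf111+/- libraries, against 109, 127 and 107 in wild-type libraries. The lowest Rnf111+/- library thus lay far above the highest wild-type library, and within each genotype the highest library was no more than 1.24 times the lowest. Smoc2 rose by 1.72 ± 0.10 on the log2 scale (SE, adjusted p = 0.00015), a 3.29-fold ratio of means (376 ± 42.4 and 114 ± 10.9 CPM, SD, n = 3 each). Only 6 of the 16841 tested genes had a smaller p. The rise held in all 6 fits that left out 1 library, between 1.63 and 1.80 on the log2 scale. An annotated antisense gene, 4930474M22Rik, lies within Smoc2 but shares 0 exon bases with it. It had 0 counts in every library and was not tested.

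Smoc1 encodes the paralog of Smoc2 and is also a BMP modulator. It was at 138, 113 and 131 CPM in Rnf111+/- libraries, against 124, 121 and 79.4 CPM in wild-type libraries. The genotypes overlapped, with wild-type replicate 3 below the rest, and no difference passed (log2 0.23 ± 0.17, adjusted p = 0.458). Without that library the value was 0.06.

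Sparc, the collagen-binding founder of its family, was the most abundant of the 9 genes per length of exon in both genotypes. Its CPM was 1092, 956 and 1196 in Rnf111+/- libraries, against 1880, 1825 and 2252 in wild-type libraries. Sparc fell to 54.4% of the wild-type mean (log2 -0.88 ± 0.11 SE, adjusted p = 0.00311), with means of 1081 ± 120 CPM in Rnf111+/- and 1986 ± 232 CPM in wild type (SD, n = 3 each). Leaving out any 1 library kept the call, with log2 values between -0.95 and -0.77 and adjusted p up to 0.0227.

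Sparcl1, which encodes hevin, an anti-adhesive protein, was at 400, 371 and 428 CPM in Rnf111+/- libraries, against 487, 498 and 513 CPM in wild-type libraries. No library of one genotype reached the range of the other, and the SD was 28.6 CPM in Rnf111+/- and 12.8 CPM in wild type. Sparcl1 fell to 80.0% of the wild-type mean (log2 -0.32 ± 0.07 SE, adjusted p = 0.0301), the smallest of the called differences. The call held without wild-type replicate 3 (adjusted p = 0.0176) and was lost without each of the others: 0.0947, 0.14 and 0.0609 without Rnf111+/- replicates 1, 2 and 3, and 0.0771 and 0.095 without wild-type replicates 1 and 2.

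**Figure D2:**
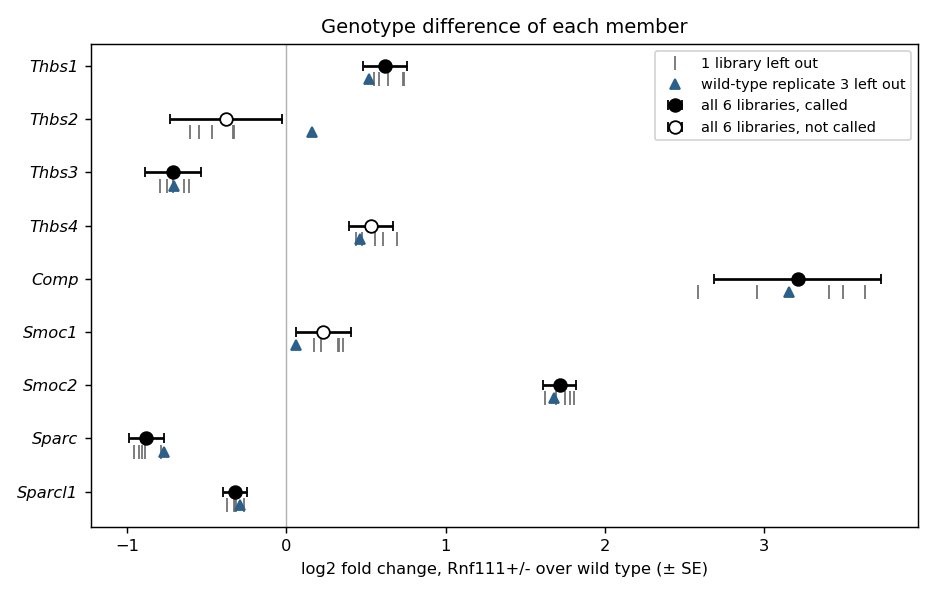
Log2 fold change of each gene, Rnf111+/- over wild type, with its SE (circles, filled where the adjusted p was under 0.05). Ticks give the value with 1 library left out and triangles the value without wild-type replicate 3. Comp spans 2.59 to 3.63 over these fits, and Thbs2 changes sign without wild-type replicate 3.

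Levels of different genes were compared as CPM per kilobase of exon. In Rnf111+/- ovaries the order was Sparc (285 ± 31.8), Thbs1 (141 ± 20.1), Sparcl1 (136 ± 9.73), Thbs4 (61.1 ± 7.56), Smoc2 (54.1 ± 6.10), Smoc1 (36.4 ± 3.74), Thbs2 (2.29 ± 0.248), Comp (2.21 ± 1.35) and Thbs3 (0.923 ± 0.115), as mean ± SD of 3 libraries. In wild-type ovaries it was Sparc (524 ± 61.3), Sparcl1 (170 ± 4.34), Thbs1 (91.8 ± 14.3), Thbs4 (42.3 ± 7.54), Smoc1 (31.0 ± 7.17), Smoc2 (16.5 ± 1.56), Thbs2 (2.97 ± 1.59), Thbs3 (1.51 ± 0.117) and Comp (0.238 ± 0.11). No neighbours in the wild-type order overlapped in range. In the Rnf111+/- order 3 pairs of neighbours did: Thbs1 with Sparcl1, Thbs4 with Smoc2, and Thbs2 with Comp. Thbs1 and Sparcl1, separate in wild type, thus overlapped in Rnf111+/- ovaries, while Smoc2 lay above Smoc1 in Rnf111+/- and below it in wild type.

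**Figure D3:**
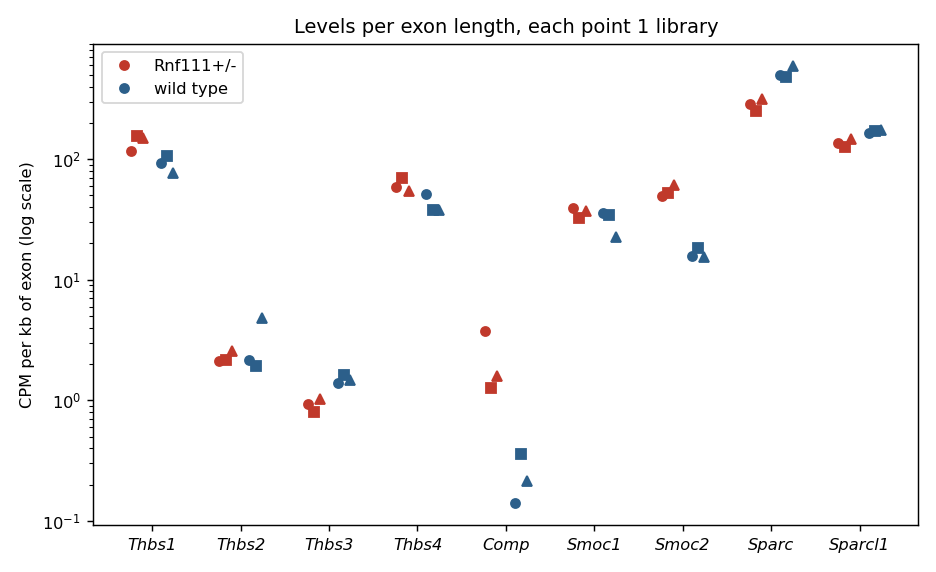
CPM per kilobase of exon for each gene on a log scale, each point being 1 library (Rnf111+/- red and left, wild type blue and right within each gene, circle, square and triangle for replicates 1, 2 and 3). Sparc is highest in both genotypes and Comp is lowest in wild type.

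Within each family, the balance of members was compared as the log2 ratio of their counts in the same library, which needs no scaling between libraries. For the SMOC pair, the ratio of Smoc2 to Smoc1 counts was 2.48, 3.20 and 3.24 in Rnf111+/- libraries, against 0.878, 1.05 and 1.35 in wild-type libraries. The difference was 1.46 ± 0.22 on the log2 scale (SE), and per length of exon Smoc2 made up 59.7 ± 3.63% of the pair in Rnf111+/- and 35.2 ± 4.95% in wild type (SD, n = 3 each). Summed per length, the pair stood at 84.3 to 98.5 CPM per kilobase in Rnf111+/- libraries and 38.1 to 52.9 in wild-type libraries.

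For the SPARC pair, the ratio of Sparcl1 to Sparc counts was 0.366, 0.388 and 0.358 in Rnf111+/- libraries, against 0.259, 0.273 and 0.228 in wild-type libraries. Both genes fell, and the ratio was higher in Rnf111+/- by 0.55 ± 0.09 on the log2 scale (SE), so that Sparcl1 made up 32.3 ± 0.912% of the pair per length in Rnf111+/- and 24.6 ± 1.71% in wild type (SD, n = 3 each). The summed level of the pair was 379 to 461 CPM per kilobase in Rnf111+/- and 651 to 769 in wild type.

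In subgroup B, the Comp to Thbs3 ratio was 2.49, 0.974 and 0.948 in Rnf111+/- libraries, against 0.0618, 0.135 and 0.0890 in wild-type libraries, a log2 difference of 3.87 ± 0.56 (SE). Comp was thus near or above the count of Thbs3 in each Rnf111+/- library and far below it in each wild-type library. The Thbs4 to Thbs3 ratio differed by 1.25 ± 0.28 and the Comp to Thbs4 ratio by 2.61 ± 0.73, both higher in Rnf111+/-. Thbs4 nevertheless made up most of subgroup B per length in both genotypes, at 95.1 ± 2.25% in Rnf111+/- and 95.9 ± 1.03% in wild type, with Comp at 3.49 ± 2.15% and 0.568 ± 0.312% and Thbs3 at 1.46 ± 0.338% and 3.50 ± 0.737% (SD, n = 3 each).

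In subgroup A, Thbs1 exceeded Thbs2 in every library, with count ratios of 48.3, 62.3 and 50.4 in Rnf111+/- and 37.0, 47.3 and 13.9 in wild type. The log2 difference of 0.88 ± 0.55 (SE) was 0.35 without wild-type replicate 3, the library with the lowest ratio. For each of the 6 ratios the genotypes did not overlap, and each exact two-sided permutation test gave p = 0.1, the smallest that 3 libraries against 3 can give, so no ratio could pass at 0.05 and none was adjusted. The 3 ratios of subgroup B share genes and are not independent.

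**Figure D4:**
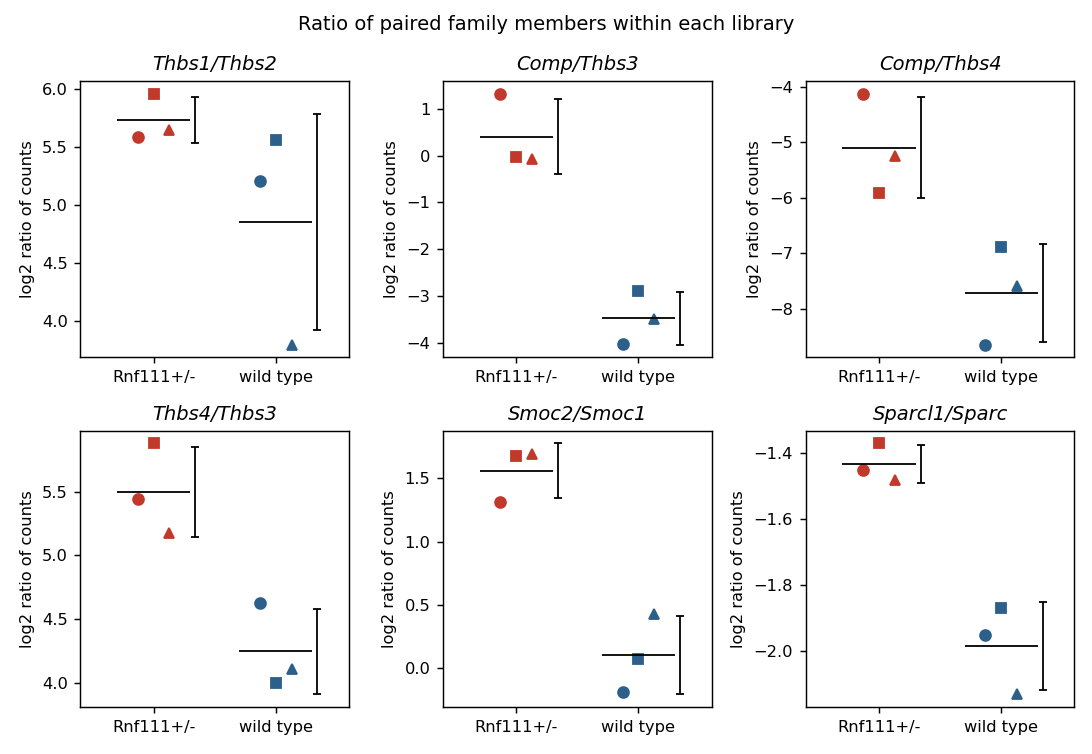
Log2 ratio of the counts of paired family members in each library, Rnf111+/- in red on the left and wild type in blue on the right (circle, square and triangle for replicates 1, 2 and 3), with means as lines and SD as bars (n = 3). The 3 Rnf111+/- libraries lie above the 3 wild-type libraries in every panel, and the y axes do not start at 0.

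Genes that these proteins bind or act with were read from 7 lists, with 90 genes besides the 9, of which 81 were tested. Over all tested genes, 3.90% rose and 5.74% fell, with a median log2 fold change of -0.008. Of the 81 list genes, 3 rose and 20 fell, with a median of -0.19. Falls numbered 9 without Rnf111+/- replicate 2, 12 without replicate 3 and 13 without replicate 1, and rises 11 without wild-type replicate 3 and 0 or 1 without each other library. Among 14 receptors for thrombospondins and SPARC, 2 rose and 0 fell by edgeR (median -0.04, 4 at an unadjusted p under 0.05), and DESeq2 called 2 higher and 2 lower. The rises were those of Cd36, the scavenger receptor through which thrombospondin-1 acts on endothelium, at 82.4 ± 14.0 CPM in Rnf111+/- and 39.4 ± 12.6 CPM in wild type (log2 1.07 ± 0.25 SE, adjusted p = 0.045), and Sdc4, a heparan sulfate proteoglycan (0.47 ± 0.12, adjusted p = 0.0421). Both calls held without wild-type replicate 3 and were lost without each other library (adjusted p up to 0.146 and 0.152), and that of Cd36 was also lost with no filter on low counts. Cd47, the other main receptor of thrombospondin-1, was at 53.6 ± 5.88 CPM in Rnf111+/- and 74.0 ± 17.1 CPM in wild type and did not pass by edgeR (adjusted p = 0.124), but was called lower by DESeq2 (adjusted p = 0.0492). Cacna2d1, which encodes a calcium channel subunit that thrombospondins bind, was at 59.1 CPM in Rnf111+/- and 96.3 CPM in wild type (log2 -0.71 ± 0.18 SE, adjusted p = 0.0517), and was called lower by DESeq2 (adjusted p = 0.00143) and without wild-type replicate 3 (adjusted p = 0.00714).

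Matrix proteins that thrombospondins or SPARC bind showed the most calls: 11 of 17 tested genes fell and 0 rose by edgeR on all libraries, with a median of -0.49. By DESeq2, with the replicate number as a block, and without wild-type replicate 3, 1 rise was called. Falls numbered 7 without Rnf111+/- replicate 2, 8 without replicate 1, and 10 to 13 without each other library. Hspg2, which encodes perlecan of basement membranes, fell to 388 ± 24.2 CPM in Rnf111+/-, against 682 ± 29.3 CPM in wild type (SD, n = 3 each, log2 -0.82 ± 0.07 SE, adjusted p = 0.000675). Col3a1, a fibrillar collagen gene, fell by 1.02, Nid2 (nidogen-2) by 0.76 and Col4a1, the basement membrane collagen that SPARC binds, by 0.66, all on the log2 scale, and these 4 calls held in all 6 fits that left out 1 library. Col6a3 went the other way, at 165 ± 28.4 CPM in Rnf111+/- and 114 ± 22.2 CPM in wild type (SD). It did not pass (log2 0.53 ± 0.17 SE, adjusted p = 0.0928), but was called higher without wild-type replicate 3 (0.71, adjusted p = 0.0064). The fall of Sparc, described above, was thus accompanied by falls of some but not all collagen genes of this list, which was chosen with results of these data known.

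Other matricellular genes, outside the 9, had 1 rise and 4 falls among 19 tested (median 0.01). Matn2 (matrilin-2, -0.84 ± 0.09, adjusted p = 0.00155) and Ecm1 (-1.10 ± 0.14, adjusted p = 0.00431) fell and stayed called in all 6 fits that left out 1 library. Tgfbi, a TGF-beta-induced adhesion protein gene, fell by 0.65, a call lost without Rnf111+/- replicates 2 and 3 (adjusted p up to 0.0675). Fbln2 fell by 0.64, a call lost without each Rnf111+/- library and without wild-type replicate 2 (up to 0.0805). The single rise was that of Ccn2 (connective tissue growth factor), named after its value was seen, at 182 ± 52.9 CPM in Rnf111+/- and 56.0 ± 17.9 CPM in wild type (log2 1.70 ± 0.31, adjusted p = 0.027), a call kept without Rnf111+/- replicate 2 and without wild-type replicate 2. It was lost without Rnf111+/- replicates 1 and 3 (adjusted p = 0.0729 and 0.0802) and on leaving out wild-type replicate 1 (0.088) or 3 (0.0664). With no filter on low counts it also missed the threshold (0.0931). Of 4 other genes of the SPARC family 3 were tested (median -0.13), and 0 were called by edgeR's main fit (1 at an unadjusted p under 0.05), DESeq2 or limma-voom. By edgeR, 1 was called lower with the replicate number as a block, and 1 without wild-type replicate 3.

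Among proteases and inhibitors that meet thrombospondin-1, 2 of 8 tested genes fell and 0 rose (median -0.44). Adamts1, the ovulatory metalloprotease that cleaves thrombospondin-1, was at 36.1 ± 3.31 CPM in Rnf111+/- and 306 ± 219 CPM in wild type (log2 -3.08 ± 0.60 SE, adjusted p = 0.0396). With 1 library left out, the call of Adamts1 held only without wild-type replicate 2 or 3, with adjusted p otherwise up to 0.15, and it was not called with limma-voom or with no filter on low counts. Genes of latent TGF-beta and its activation had 0 calls by edgeR's main fit or limma-voom among 9 tested (4 at an unadjusted p under 0.05, median 0.08). DESeq2 called 2 higher and 1 lower, as did edgeR without wild-type replicate 3. By edgeR, 1 was called higher with upper-quartile scaling and with the replicate block, and 1 higher and 1 lower with no filter on low counts. Of genes of vascular endothelial growth factor signalling and related vessel growth, which thrombospondin-1 opposes, 3 of 11 fell and 0 rose (median -0.28). Fgf2 fell by 0.70, Flt1 by 0.57 and Kdr, the main receptor of the growth factor, by 0.39. No fall among these was called without Rnf111+/- replicate 2 or 3, 1 was called without wild-type replicate 2, and Vegfa was at 103 ± 19.7 CPM in Rnf111+/- and 138 ± 17.3 CPM in wild type (adjusted p = 0.134).

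**Figure D5:**
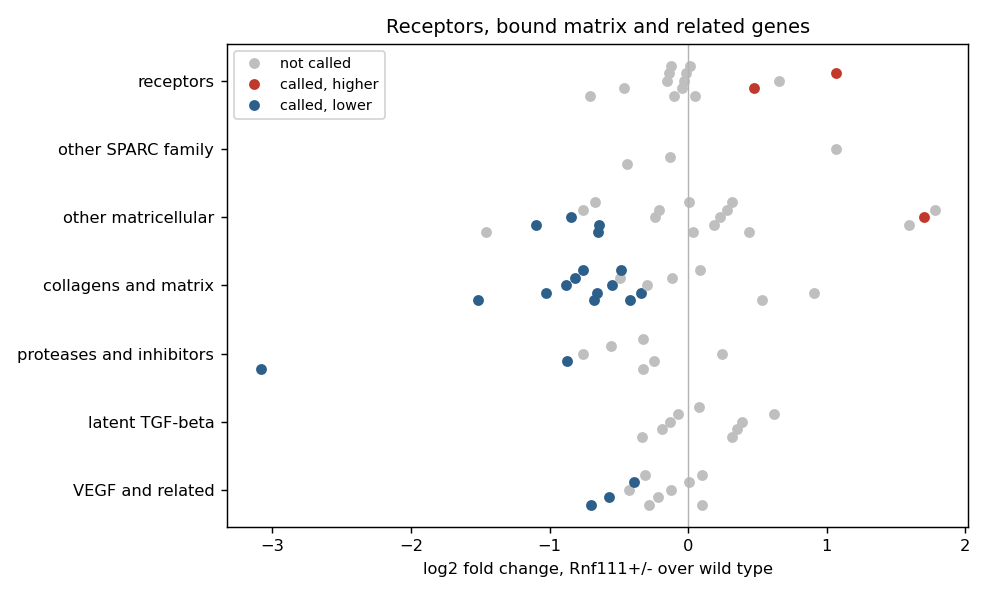
Log2 fold change, Rnf111+/- over wild type, of each tested gene in the 7 lists of receptors, bound matrix and related genes, coloured by the edgeR call. Vertical scatter within a row has no meaning. Collagens and other bound matrix genes hold 11 of the 20 falls, and the 3 rises are among receptors and other matricellular genes.

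Markers of several ovarian cell types differed between the genotypes as well. Their counts stand beside the 3.90% of all tested genes that rose and the 5.74% that fell. Stromal fibroblast markers fell in 4 of 9 cases and rose in 0 (Lum, Dcn, Col3a1 and Col1a1, the last 2 of which are also in the matrix list, median -0.60), with a sum of 1490 to 1760 CPM in Rnf111+/- and 2610 to 3110 CPM in wild type. Without Rnf111+/- replicate 1 or 2 those falls numbered 2. Endothelial markers fell in 6 of 12 cases (median -0.39), among them Kdr, which is also in the list of vessel growth genes. Their sums were 488 to 549 CPM in Rnf111+/- and 611 to 750 CPM in wild type, and 0 to 2 were called without each library other than wild-type replicate 3. Smooth muscle and pericyte markers fell in 3 of 10 cases (median -0.54), with sums of 867 to 1120 CPM in Rnf111+/- and 1310 to 1610 CPM in wild type. Of 10 macrophage markers 0 were called by edgeR or limma-voom (2 at an unadjusted p under 0.05), 1 fell by DESeq2, and 4 rose without wild-type replicate 3. Granulosa markers summed to 8370 to 11700 CPM in Rnf111+/- and 3680 to 8490 CPM in wild type, with 1 rise among 10 by edgeR and a median of 0.37, against 4 rises by DESeq2 and 3 by edgeR without wild-type replicate 3. That rise, of the aromatase gene Cyp19a1, was lost without Rnf111+/- replicate 2 and without each wild-type library (adjusted p up to 0.0725), and with no filter on low counts. Platelets carry thrombospondin-1, and their 3 tested markers of 9 summed to 4.50 to 5.90 CPM in Rnf111+/- and 6.55 to 11.3 CPM in wild type, with 0 called by edgeR (2 at an unadjusted p under 0.05), DESeq2 or limma-voom. Oocyte markers rose in 6 of 10 cases and fell in 0 (median 0.66), with sums of 235 to 319 CPM in Rnf111+/- and 172 to 192 CPM in wild type. Those rises numbered 2 without Rnf111+/- replicate 1, 1 without Rnf111+/- replicate 2 and 2 without wild-type replicate 2.

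Corpus luteum markers fell in 4 of 10 cases and rose in 0 by edgeR (median -0.53), while DESeq2 also called 2 higher, and 3 were called higher without wild-type replicate 3. The falls were those of Parm1 (log2 -2.22), Fdxr (-0.94), Star (-0.84) and Hsd3b1 (-0.53). The calls of Parm1, Fdxr and Star held in all 6 fits that left out 1 library. That of Hsd3b1 was lost without Rnf111+/- replicate 2 and without wild-type replicates 1 and 2 (adjusted p up to 0.0635). Akr1c18 (log2 3.13 ± 1.06 SE, adjusted p = 0.153), Sfrp4 (2.56 ± 0.71, 0.0972) and Ptgfr (1.79 ± 0.84, 0.268) went the other way. These did not pass, though every Rnf111+/- library lay above every wild-type library. The 10 markers summed to 13500 to 18100 CPM in Rnf111+/- and 13500 to 16100 CPM in wild type. Theca and interstitial markers had 1 rise and 2 falls among 7. Mgarp fell to 305 ± 12.3 CPM in Rnf111+/-, against 1080 ± 91.9 CPM in wild type (SD, log2 -1.83 ± 0.08 SE, adjusted p = 6.89e-05). Srd5a1 fell by 0.73 ± 0.14 on the log2 scale (SE, adjusted p = 0.0155), a call lost without Rnf111+/- replicate 3 (0.0529). The rise was that of Cyp17a1, the androgen-producing enzyme gene, at 197 ± 54.1 CPM in Rnf111+/- and 2.81 ± 1.53 CPM in wild type (SD, n = 3 each, log2 6.13 ± 0.45 SE, adjusted p = 0.00173). Surface epithelium markers had 1 rise and 4 falls among 8 (median -0.29), with sums of 444 to 494 CPM in Rnf111+/- and 541 to 580 CPM in wild type, and 0 or 1 fall was called without each library other than wild-type replicate 3. No marker in these lists was at 0 in all 6 libraries. The part of these shifts in the values of the 9 genes was not tested.

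For each called gene, the genes most alike in pattern were those with the smallest root mean square difference of centred log2 CPM over the 6 libraries, among 13356 candidate genes. Nearest to Smoc2 was Prss23, a secreted serine protease gene, with a difference of 0.0596, at 307 ± 38.2 CPM in Rnf111+/- and 88.5 ± 9.15 CPM in wild type (SD, n = 3 each), followed by Lrp11 (0.131) and Me3 (0.14). Nearest to Sparc were Islr (0.0599), Tspo (0.0635) and Lgals1, which encodes galectin-1 (0.0804). Nearest to Thbs1 were Zfp879 (0.0519), Rps6ka5 (0.0687) and Rnf144b (0.0735), and nearest to Thbs3 were Ccnd1, which encodes cyclin D1 (0.0342), Sntb1 (0.057) and Ptgfrn (0.0705). For Sparcl1 they were Mmd (0.0227), Adi1 (0.0269) and Ndufb1 (0.0343). Comp had no gene as close, its nearest being Myom2 at 0.361, Slc38a3 at 0.406 and Ass1 at 0.478. The genotype difference enters this measure, and closeness over 6 libraries is a description only.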

How the data were processed

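The authors deposited bulk RNA sequencing of 6 ovary libraries as raw read counts in 1 table, with gene symbols as rows. Per the submitters' processing notes, fastp (0.20.1), HISAT2 (2.1.0), HTSeq (0.11.2), DESeq2 (1.38.3) and GRCm39 were used. What each tool did, the annotation and the strand setting were not given in the sources used here. Genotypes came from the labels. The counts were analysed in R (4.3.3) with edgeR (4.0.16): filterByExpr (minimum count 10, total 15), TMM scaling, a robust quasi-likelihood fit of genotype on all 6 libraries, and Benjamini-Hochberg adjustment over 16841 genes, called under 0.05. The SE is the absolute log2 fold change over the square root of F. The script was tested on simulated data. The 9 genes, the lists and the rule for named genes were chosen with earlier results of these data known. That rule took the 9 genes, Rnf111, up to 4 called genes of smallest p per list, and the 3 nearest patterns per called gene. Cd47, Cacna2d1, Vegfa, Mtx1, Col6a3, Akr1c18, Sfrp4, Ptgfr and the cartilage and tendon genes were named outside it, after their values were seen. Of the genes that rule takes, 1 is not reported here. Exon lengths and overlaps came from GENCODE vM21 on GRCm38, and no coordinates were moved between builds. No library pair was alike within sampling noise (lowest chi-square per degree of freedom 12.4). The floor of detection covers counting error only, while each SD and SE includes differences between libraries. Alternatives were 2 scalings, no filter, DESeq2 (1.42.0), limma-voom (3.58.1), the replicate number as a block, and leaving out each library; ratios were repeated with 0.5 added to counts.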

Additional observations from a re-analysis of the deposited data

How the results depend on the processing

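Comp, Smoc2 and Sparc kept direction and call under all 6 alternatives and all 6 fits that left out 1 library. Thbs1 and Sparcl1 kept their calls under all 6 alternatives, with leave-one-out log2 values of 0.52 to 0.74 and -0.37 to -0.26. Thbs3 (leave-one-out -0.79 to -0.61) lost its call under the replicate block (log2 -0.71, adjusted p = 0.0682), with which no other of the 6 called genes lost its call, while Rnf111, Adamts1 and Ccn2 did and Cd47 and Cacna2d1 were called lower. Thbs4 (leave-one-out 0.44 to 0.70) passed with DESeq2's size factors in edgeR (0.54, adjusted p = 0.0466), upper-quartile scaling (0.56, 0.0471), DESeq2 (0.54, 0.00335), limma-voom (0.54, 0.0468) and the block (0.54, 0.0494). Thbs2 ran from -0.60 to 0.17 over the leave-one-out fits and reversed without wild-type replicate 3. The genes called over the whole table numbered 224 to 1273 higher and 297 to 1522 lower with 1 library left out, against 657 and 966, and DESeq2 called 1172 higher. Of the 9 genes, 1 to 3 fell with 1 library left out. Genes of the 7 lists numbered 0 to 11 higher and 9 to 28 lower with 1 library left out, 7 higher with DESeq2 and 5 higher with the block. All 6 ratios kept their direction in every setting, including the 0.5 added to counts. Deviations of same-numbered libraries from their group means correlated at 0.012, 0.00568 and 0.1, so the numbers were not taken to pair the samples. Where values moved, the cause was not tested. Depth limits Comp in wild type, at 16 to 41 counts, and Thbs3, at 152 to 304 counts.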

Other observations

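Several matricellular and receptor genes, chosen after their values were seen, differed widely among wild-type libraries. Tnc (tenascin-C) was at 765 ± 197 CPM in Rnf111+/- and 223 ± 180 CPM in wild type and did not pass with all libraries (log2 1.78 ± 0.62 SE, adjusted p = 0.156), but passed without wild-type replicate 3 (2.69, adjusted p = 0.00605). Itgb3, the integrin beta-3 subunit that binds thrombospondin-1, was at 92.7 ± 8.99 CPM in Rnf111+/- and 58.9 ± 31.0 CPM in wild type (adjusted p = 0.329), and at a log2 value of 1.19 without that library (adjusted p = 2.29e-05). Tgfb1, whose latent protein thrombospondin-1 can activate, was at 89.5 ± 7.47 CPM in Rnf111+/- and 58.3 ± 18.0 CPM in wild type (adjusted p = 0.119), and at 0.91 without that library (adjusted p = 8.59e-05). Spp1 (osteopontin) was at 26.4 ± 1.36 CPM in Rnf111+/- and 72.4 ± 44.6 CPM in wild type (log2 -1.46, adjusted p = 0.11), and at -0.83 without that library (adjusted p = 0.00848). All ± values of CPM are SD of 3 libraries.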
